A study of Homo sapiens with 12 samples.

Results

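The 9 genes described here, FOS, FOSB, FOSL1, FOSL2, JUN, JUNB, JUND, ATF3 and BATF3, encode subunits of the transcription factor AP-1. They were found by their symbols in the array's probe annotation, and each was named by exactly 1 probe set. They make up 9 of the 18417 genes tested, and all 9 also passed a filter on dim genes that was tried as an alternative. By an F test over the 4 treatment groups 6 of the 9 differed, as did 28.5% of all genes. Transcript levels were read on 12 arrays from MCF10A, a human mammary epithelial line that does not form tumours, and in every group the cells stably expressed a chimeric HER2, the full-length human receptor fused to FKBP and HA tags. The 4 groups of 3 arrays were cells given AP1510 for 48 hours, cells given TGF-alpha for 48 hours, cells given heregulin for 48 hours, and untreated cells. AP1510 is a synthetic compound that joins FKBP tags and so pairs the chimeric receptors, while TGF-alpha binds EGFR, and heregulin binds HER3 and HER4. Every dish, by the labels' protocol, was kept without horse serum and EGF from 24 hours before ligand, while cholera toxin (100 ng/ml), hydrocortisone (500 ng/ml) and insulin (10 microgram/ml) stayed in the medium. The sources used here give no ligand dose and do not say whether the line is 1 clone, which promoter drives the chimera or when untreated cells were harvested. Treatment and time in culture therefore cannot be told apart in comparisons with untreated cells. Since each group was 3 dishes of this line, p-values measure the spread between dishes and their arrays.

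AP-1 is a dimer of basic leucine zipper (bZIP) proteins that binds short DNA elements in promoters and enhancers. Proteins of the JUN family pair with each other or with a partner, whereas proteins of the FOS family do not form stable homodimers and need a JUN protein. Receptor tyrosine kinases reach these genes through the ERK and JNK kinases. FOS, FOSB, JUN, JUNB and ATF3 are classic immediate early genes, whose RNA rises within minutes to hours of a growth factor and then falls quickly. FOSL1 and FOSL2 follow later, and their proteins are stabilised by ERK phosphorylation. The arrays read RNA at a single late time, and protein amount and phosphorylation were not measured.

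The promoters of 7 of the 9 genes were available from RefSeq (GRCh38.p14), as windows of 300 bases that run from 250 before to 50 after the annotated start. FOS, FOSB, JUN and FOSL2 are shown as examples. The first 3 were lower after each treatment, as was JUNB, which is not shown, whereas FOSL2 was higher after heregulin. Each window shown is written 5′ to 3′ on the strand of its gene, and capitals mark AP-1 and cyclic AMP response element (CRE) letters.
FOS: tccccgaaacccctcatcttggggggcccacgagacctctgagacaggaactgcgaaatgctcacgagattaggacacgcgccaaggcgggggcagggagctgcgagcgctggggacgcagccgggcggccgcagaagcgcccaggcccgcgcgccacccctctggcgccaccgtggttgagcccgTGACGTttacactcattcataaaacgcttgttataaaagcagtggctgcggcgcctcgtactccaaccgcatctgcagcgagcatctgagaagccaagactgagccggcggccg
FOSB: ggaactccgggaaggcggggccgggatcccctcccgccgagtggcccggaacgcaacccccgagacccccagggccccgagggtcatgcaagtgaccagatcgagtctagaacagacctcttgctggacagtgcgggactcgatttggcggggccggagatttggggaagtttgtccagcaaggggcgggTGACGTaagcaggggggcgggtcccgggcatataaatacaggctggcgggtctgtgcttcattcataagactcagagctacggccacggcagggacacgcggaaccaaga
JUN: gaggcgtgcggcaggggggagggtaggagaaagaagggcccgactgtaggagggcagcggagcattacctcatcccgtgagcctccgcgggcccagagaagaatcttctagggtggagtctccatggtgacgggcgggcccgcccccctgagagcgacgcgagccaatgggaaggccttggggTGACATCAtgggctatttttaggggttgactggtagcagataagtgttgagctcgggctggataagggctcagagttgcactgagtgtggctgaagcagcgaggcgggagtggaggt
FOSL2: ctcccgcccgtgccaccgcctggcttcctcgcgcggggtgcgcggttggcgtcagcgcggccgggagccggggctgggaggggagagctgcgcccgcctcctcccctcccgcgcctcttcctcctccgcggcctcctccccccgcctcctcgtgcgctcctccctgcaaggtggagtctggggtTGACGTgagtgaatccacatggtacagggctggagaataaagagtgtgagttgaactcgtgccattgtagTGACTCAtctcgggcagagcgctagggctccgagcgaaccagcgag
The windows lie at chr14:75278578-75278877 (plus strand) for FOS, chr19:45467746-45468045 (plus strand) for FOSB, chr1:58783998-58784297 (minus strand) for JUN and chr2:28392608-28392907 (plus strand) for FOSL2. All 4 windows shown hold capitals at a like distance from the start, whereas that of JUNB, which is not shown, has no such letters. The CRE core TGACGT began 64 bases before the start in FOS, 60 bases before it in FOSB and 66 bases before it in FOSL2. JUN held the variant AP-1 letters TGACATCA, beginning 67 bases before the start. FOSL2 also held the AP-1 letters TGACTCA, beginning at base 5 after the start, and was the 1 window of the 8 (ATF3 has 2 annotated starts) to do so.

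Both strands were searched in all 35116 promoter windows. TGACGT was found in 7.98% of them and in 4 of the 8 windows of these genes, TGACATCA in 2.61% and in 2 (JUN and the first start of ATF3), and TGACTCA in 4.95% and in 1. The full CRE TGACGTCA, which overlaps TGACGT, was found in 1.85% of all windows and in JUND alone among these genes, beginning 200 bases before its start. JUN also held a MEF2 site, which 0.572% of windows hold, 55 bases before its start. JUNB held neither AP-1 nor CRE letters and had a CCAAT box 67 bases before its start (34.6% of all windows hold CCAAT). No window of these genes held a CArG box, the element that serum response factor binds, against 1.29% of all windows. Sequence beyond the windows, near or distal, was not searched. A CArG box just upstream of a window, in FOS or another gene, would therefore have been missed. These matches describe letters and not binding.

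**Figure D1:**
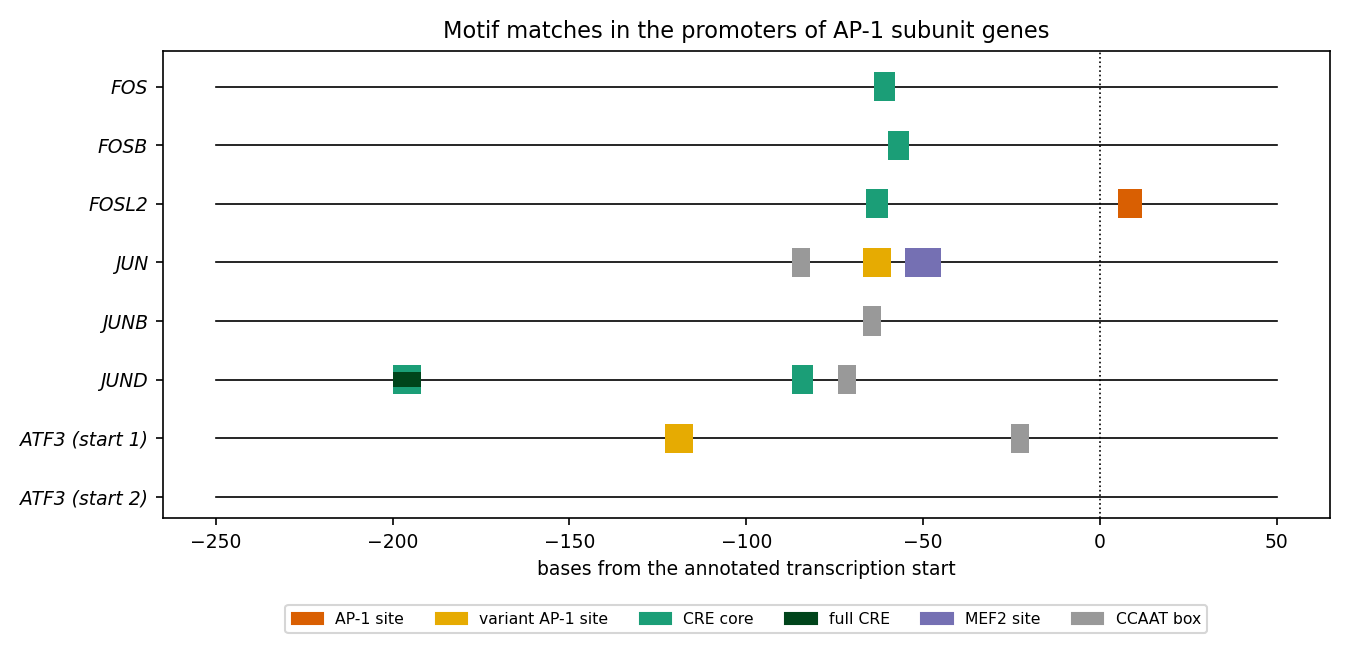
Motif matches (coloured blocks, on either strand) in the promoter windows of 7 AP-1 subunit genes, against the distance in bases from the annotated transcription start. The CRE core of FOS, FOSB and FOSL2 and the variant AP-1 site of JUN begin between 60 and 67 bases before the start, and the second ATF3 start has no match.

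Across probe sets, array pairs had a correlation of 0.988 to 0.994 within groups and of 0.978 to 0.993 between them. The 8 measured basal mammary epithelial markers (of 10 listed) all lay, by their mean over the 12 arrays, above the median log2 intensity of 5.37 over all probe sets, as did 2 of 7 leukocyte, 2 of 5 endothelial and 1 of 6 fibroblast markers. The mean of the basal markers was 9.79 to 9.90 on AP1510 arrays, 10.28 to 10.32 on TGF-alpha arrays and 9.97 to 10.04 on heregulin arrays, against 9.65 to 9.72 on untreated arrays. The mean of the leukocyte markers was 4.65 to 4.78, 4.47 to 4.55 and 4.67 to 4.76 in these treated groups in the same order, against 4.62 to 4.68 on untreated arrays. Of these 7, TGF-alpha against untreated called CD68 alone, which was lower by a log2 change of 0.80 (limma, adjusted p = 2.1e-05), and 6 did not pass. The part of the basal and leukocyte markers in the results below was not tested. In bulk RNA fewer expressing cells and less RNA per cell cannot be told apart. AP1510 replicate 1 stood apart from its group: it lay at -2.43 on the first principal component, against -12 and -14 for the other AP1510 arrays, 34.0 to 38.3 for TGF-alpha arrays, -8.5 to -6.49 for heregulin arrays and -20.3 to -18.7 for untreated arrays. It also had the lowest value of the AP1510 group for 8 of the 9 genes and the highest for FOSL2. AP1510 results of the genes named below are therefore marked where they change without it.

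FOS, the founding member of the FOS family, was lower in each treated group. Its log2 intensity was 10.35, 10.41 and 10.58 with AP1510, 10.21, 10.32 and 10.19 with TGF-alpha and 10.53, 10.71 and 10.89 with heregulin, against 11.18, 11.25 and 11.17 in untreated cells. No treated array reached the lowest untreated one, and the TGF-alpha arrays lay below all others, though only narrowly below AP1510 arrays. The log2 change against untreated was -0.76 ± 0.10 with AP1510, -0.96 ± 0.10 with TGF-alpha and -0.50 ± 0.10 with heregulin (limma, standard error, n = 3 arrays per group, adjusted p = 0.0011, 1.7e-06 and 0.0043). Between treatments, FOS was 1.38-fold higher with heregulin than with TGF-alpha (adjusted p = 0.0024). TGF-alpha against AP1510 missed the threshold at a log2 difference of -0.21 (95% interval -0.42 to 0.00, adjusted p = 0.18), and so did heregulin against AP1510 at 0.26 (0.05 to 0.47, adjusted p = 0.14), which passed without heregulin replicate 1 (0.35, adjusted p = 0.047). In the order of levels from TGF-alpha through AP1510 to heregulin, neighbours did not differ past the threshold, and all 3 lay below untreated cells. That FOS is low at 48 hours says nothing of its level in the first hours.

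FOSB, a close relative of FOS that is also made as a truncated form lacking an activation domain, had the widest range of the 9 genes. The probe set does not separate these forms. AP1510 arrays read 9.56, 9.67 and 9.94, TGF-alpha arrays 7.54, 7.37 and 7.59 and heregulin arrays 9.33, 9.44 and 9.55, against 10.61, 10.39 and 10.33 on untreated arrays. The TGF-alpha arrays lay apart from all others, and AP1510 and heregulin arrays lay next to each other between them and the untreated ones. FOSB fell 1.65-fold with AP1510 (log2 change -0.72 ± 0.11), 7.70-fold with TGF-alpha and 2.01-fold with heregulin, at adjusted p of 0.0041, 1e-10 and 2.2e-05. With TGF-alpha it lay 4.67-fold below AP1510 (log2 difference -2.22 ± 0.11, adjusted p = 2.2e-09), and with heregulin it was 3.84-fold higher than with TGF-alpha (adjusted p = 4.7e-09). Heregulin and AP1510 did not differ past the threshold (log2 difference -0.28, 95% interval -0.52 to -0.04, adjusted p = 0.16). By the F test over the 4 groups FOSB had rank 19 of the 18417 genes (adjusted p = 2.2e-10).

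FOSL2, which encodes FRA-2, was the 1 subunit gene that rose against untreated cells. Its values were 9.63, 9.27 and 9.37 with AP1510, 9.45, 9.52 and 9.47 with TGF-alpha and 10.37, 10.33 and 10.35 with heregulin, against 9.71, 9.70 and 9.61 in untreated cells. All heregulin arrays lay above all other arrays and within a narrow band (SD 0.020). Heregulin raised FOSL2 1.59-fold over untreated cells (log2 change 0.67 ± 0.09, adjusted p = 0.00016). It stood 1.90-fold above AP1510 (adjusted p = 9e-06) and 1.83-fold above TGF-alpha (adjusted p = 3.3e-06). All TGF-alpha arrays lay below the untreated ones, but the other groups did not differ past the threshold, with log2 differences of -0.25 for AP1510 against untreated (95% interval -0.45 to -0.06, adjusted p = 0.26), -0.20 for TGF-alpha against untreated (-0.39 to 0.00, adjusted p = 0.15) and 0.06 for TGF-alpha against AP1510 (-0.14 to 0.25, adjusted p = 0.78). Under 1 of the 19 other settings and refits, the fall with TGF-alpha against untreated did pass.

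FOSL1, which encodes FRA-1, did not pass in any contrast or in the F test (adjusted p = 0.39), although heregulin against TGF-alpha passed without heregulin replicate 2 (log2 difference -0.37, adjusted p = 0.046). Arrays read 6.85, 7.00 and 7.01 with AP1510, 7.31, 7.02 and 7.34 with TGF-alpha and 6.71, 7.27 and 7.01 with heregulin, against 6.96, 7.19 and 7.06 in untreated cells, so each treated group overlapped the untreated one. The 95% interval of its log2 change was -0.39 to 0.16 with AP1510, -0.12 to 0.43 with TGF-alpha and -0.35 to 0.20 with heregulin. TGF-alpha arrays all lay above AP1510 arrays, at a log2 difference of 0.27 that did not pass (95% interval -0.01 to 0.54, adjusted p = 0.18).

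**Figure D2:**
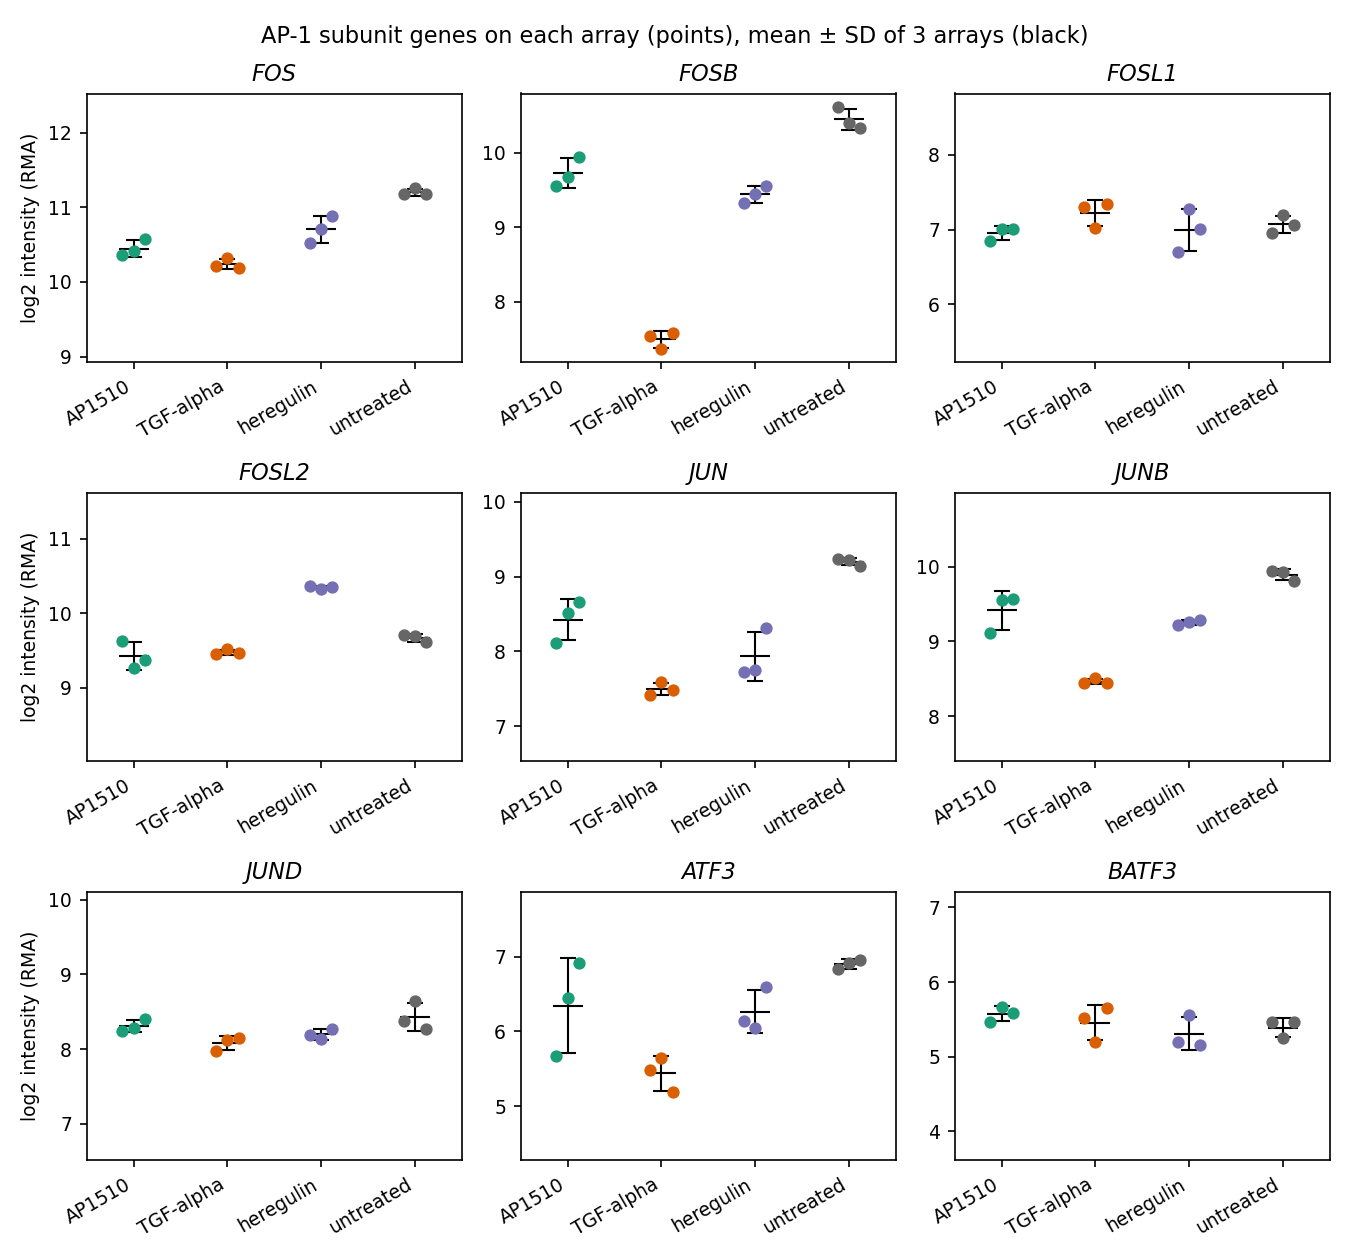
Log2 intensity of the 9 AP-1 subunit genes on each of the 12 arrays, by group; points are arrays, black bars the mean ± SD of 3 arrays, and every panel spans the same log2 range. FOS, FOSB, JUN, JUNB and ATF3 are lowest on all 3 TGF-alpha arrays, FOS and ATF3 only narrowly. FOSL2 is highest on all 3 heregulin arrays, and FOSL1, JUND and BATF3 show little separation.

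JUN encodes c-Jun, which can activate its own promoter through the variant AP-1 letters shown above. It read 8.11, 8.51 and 8.66 on AP1510 arrays, 7.41, 7.58 and 7.48 on TGF-alpha arrays and 7.73, 7.76 and 8.31 on heregulin arrays, against 9.24, 9.22 and 9.14 on untreated arrays. Every treated array lay below every untreated one, and heregulin replicate 3 fell within the AP1510 range. JUN fell 1.71-fold with AP1510 (log2 change -0.78 ± 0.15, adjusted p = 0.015). The fall was 3.26-fold with TGF-alpha and 2.41-fold with heregulin (adjusted p = 2.7e-07 and 3.3e-05). The AP1510 call ended without AP1510 replicate 1 (log2 change -0.62, adjusted p = 0.083), untreated replicate 1 (adjusted p = 0.067) or untreated replicate 2 (adjusted p = 0.057). TGF-alpha put JUN 1.91-fold below AP1510 (adjusted p = 0.00021). With heregulin it was 1.35-fold higher than with TGF-alpha (adjusted p = 0.046), a call that 8 of the 12 refits with 1 array left out did not keep (adjusted p = 0.24 and log2 difference 0.25 without heregulin replicate 3, the highest p). Heregulin against AP1510 missed the threshold (log2 difference -0.50, 95% interval -0.81 to -0.18, adjusted p = 0.057) and passed without AP1510 replicate 1 (adjusted p = 0.012) or heregulin replicate 3 (adjusted p = 0.0049).

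JUNB encodes a JUN protein with weaker activity on many AP-1 elements than c-Jun. Its log2 intensity was 9.12, 9.56 and 9.57 with AP1510, 8.44, 8.50 and 8.44 with TGF-alpha and 9.22, 9.26 and 9.28 with heregulin, against 9.95, 9.93 and 9.81 in untreated cells. The TGF-alpha arrays were lowest, and heregulin arrays lay inside the AP1510 range. TGF-alpha lowered JUNB 2.70-fold (log2 change -1.43 ± 0.11, adjusted p = 6.5e-08), and heregulin lowered it 1.56-fold (adjusted p = 0.0011). With AP1510 it fell 1.39-fold (adjusted p = 0.038), and 8 of the 12 refits did not keep this call, with adjusted p up to 0.15 without AP1510 replicate 1 or untreated replicate 1. TGF-alpha put JUNB 1.94-fold below AP1510 (adjusted p = 7.8e-06), and heregulin left it 1.73-fold above TGF-alpha (adjusted p = 4.7e-05). Heregulin against AP1510 did not pass (log2 difference -0.16, 95% interval -0.39 to 0.07, adjusted p = 0.45), except without AP1510 replicate 1 (-0.31, adjusted p = 0.046).

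JUND, the JUN gene known for steady expression in resting cells, had the smallest range of group means in its family, 1.27-fold. Its arrays read 8.25, 8.28 and 8.41 with AP1510, 7.98, 8.12 and 8.15 with TGF-alpha and 8.19, 8.13 and 8.27 with heregulin, against 8.37, 8.64 and 8.27 in untreated cells. Of the treated groups, TGF-alpha alone lay wholly below the untreated arrays. JUND fell with TGF-alpha (log2 change -0.35 ± 0.10, adjusted p = 0.017), a call that ended without untreated replicate 2 (adjusted p = 0.1) or TGF-alpha replicate 1 (adjusted p = 0.08). In the F test over the 4 groups JUND did not pass (adjusted p = 0.068), nor did it in any of the other 5 contrasts.

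ATF3 encodes a stress-induced bZIP protein that pairs with JUN proteins and represses as a homodimer. Values were 5.67, 6.45 and 6.92 on AP1510 arrays, 5.49, 5.64 and 5.19 on TGF-alpha arrays and 6.15, 6.05 and 6.59 on heregulin arrays, against 6.84, 6.92 and 6.96 on untreated arrays. AP1510 arrays spread over a range wider than that of any other gene and group here (SD 0.63). The lowest of them lay just above the highest TGF-alpha array, and the highest lay within the untreated range. ATF3 was dim on the TGF-alpha arrays, which lay close to the median of 5.37 over all probe sets. ATF3 fell 2.76-fold with TGF-alpha (log2 change -1.47 ± 0.23, adjusted p = 0.00012) and lay 1.88-fold below AP1510 (adjusted p = 0.0078). With heregulin it was 1.77-fold higher than with TGF-alpha (adjusted p = 0.015), a call that ended without TGF-alpha replicate 3 (adjusted p = 0.078) or heregulin replicate 3 (adjusted p = 0.077). The log2 change was -0.56 with AP1510 (95% interval -1.04 to -0.08, adjusted p = 0.33, and a change of -0.22 without AP1510 replicate 1) and -0.64 with heregulin (-1.13 to -0.16, adjusted p = 0.1). The heregulin change passed without AP1510 replicate 1 (adjusted p = 0.015) or AP1510 replicate 3 (adjusted p = 0.04), arrays that enter it only through the shared spread.

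BATF3 encodes a small bZIP protein known from dendritic cells, which has no activation domain and pairs with JUN proteins. It was dim, at 5.47, 5.67 and 5.58 with AP1510, 5.52, 5.20 and 5.65 with TGF-alpha and 5.20, 5.56 and 5.16 with heregulin, against 5.46, 5.25 and 5.46 in untreated cells. These values lie close to the table's median of 5.37, and the groups overlapped except AP1510 and untreated, whose nearest arrays were 5.47 and 5.46. No contrast passed, and the F test had an adjusted p of 0.41.

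The comparison of AP1510 with untreated cells addresses pairing of the HER2 chimera. Of the 9 genes, 4 fell (FOS, FOSB, JUN and JUNB), 0 rose and 5 did not pass by limma, where 1.47% of all genes were called, 0.771% higher and 0.7% lower. At an unadjusted p under 0.05 the counts were 6 lower and again 0 higher. The count was 2 without AP1510 replicate 1, untreated replicate 1 or untreated replicate 2, since JUN and JUNB then missed. The median log2 change of the 9 genes was -0.48, against -0.01 over all genes tested. Arrays did not overlap between the groups for 5 of the 9 genes (the 4 that fell, and BATF3, which was higher), as for 17.3% of all genes.

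For the EGFR ligand, TGF-alpha against untreated, 6 of the 9 genes fell (FOS, FOSB, JUN, JUNB, JUND and ATF3), 0 rose, also at an unadjusted p under 0.05, and 3 did not pass. Of all genes 26% were called, 12.5% higher and 13.4% lower. The median log2 change was -0.96 over the 9 genes and -0.01 over all genes. Groups did not overlap for 7 of the 9 genes and for 40.2% of all genes.

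For the HER3 and HER4 ligand, heregulin against untreated, FOS, FOSB, JUN and JUNB fell, FOSL2 rose and the other 4 genes did not pass, where 8.5% of all genes were called, 3.45% higher and 5.06% lower. The median log2 change was -0.50 over the 9 genes and 0.01 over all genes. Groups did not overlap for 6 of the 9 genes and for 23.8% of all genes. FOS, FOSB, JUN and JUNB were thus lower in all 3 treated groups than in untreated cells, as were 0.364% of all genes. The 3 contrasts share the untreated arrays, and JUN and JUNB left this set without AP1510 replicate 1 or untreated replicate 1 or 2, and JUNB in other refits too.

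**Figure D3:**
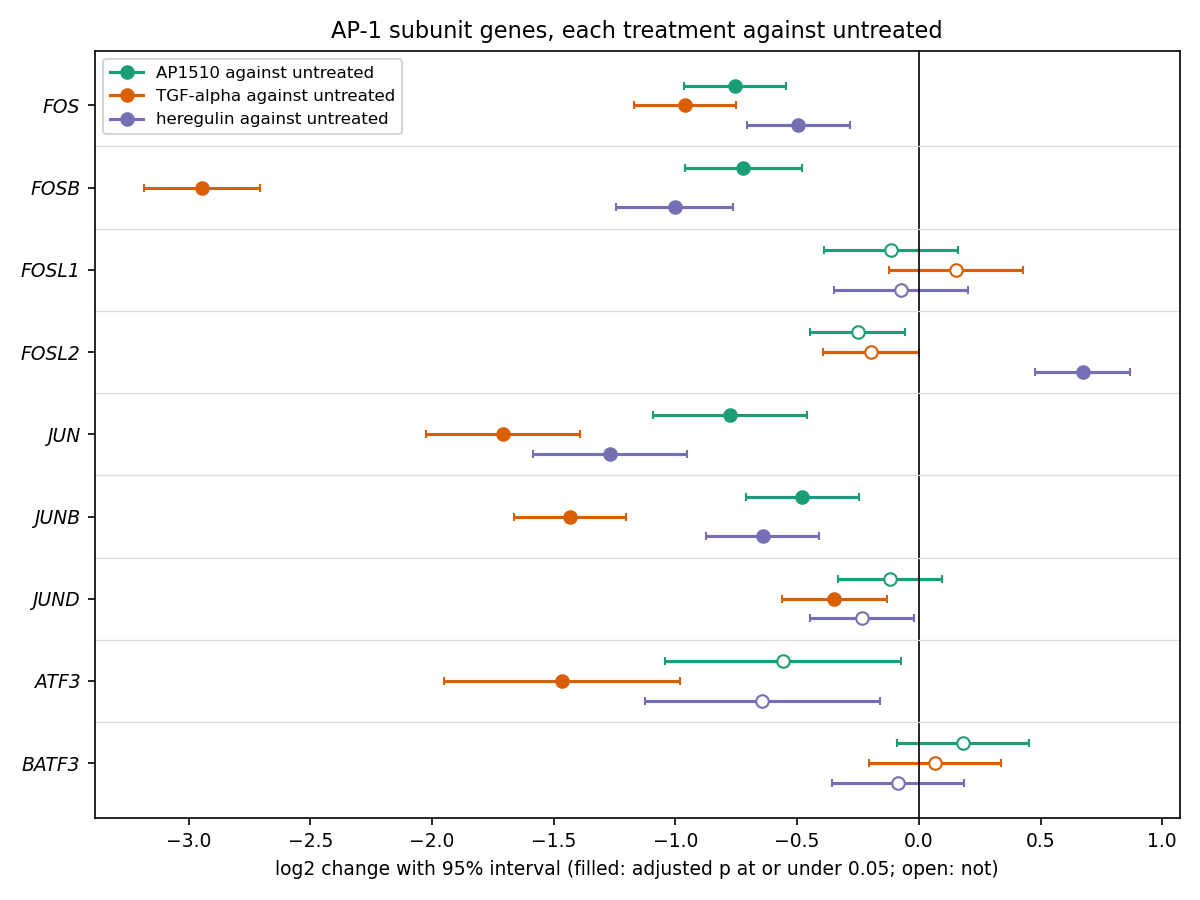
Log2 change of each AP-1 subunit gene in each treatment against untreated cells, with 95% intervals from the limma fit (3 arrays per group); filled points passed an adjusted p of 0.05. FOSB with TGF-alpha lies farthest from 0 at -2.94, and FOSL2 with heregulin is the only filled point above 0.

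The treatments also differed from each other. TGF-alpha against AP1510 had 4 genes lower (FOSB, JUN, JUNB and ATF3), 0 higher, also at an unadjusted p under 0.05, and 5 not passed, where 21.6% of all genes were called, 11.2% higher and 10.4% lower. Arrays of these groups did not overlap for 7 of the 9 genes and for 36.4% of all genes. Heregulin against TGF-alpha had 6 genes higher (FOS, FOSB, FOSL2, JUN, JUNB and ATF3) and 0 lower, also at an unadjusted p under 0.05, where 21.6% of all genes were called, 9.88% higher and 11.8% lower. Here 6 of the 9 genes did not overlap, as did 34.3% of all genes. Heregulin against AP1510 had 1 gene higher, FOSL2, and 8 not passed, where 7.23% of all genes were called, 3.27% higher and 3.95% lower; 2 higher and 2 lower had an unadjusted p under 0.05. FOSB and FOSL2 were the 2 of the 9 genes without overlap, against 22.7% of all genes. FOSB, JUN, JUNB and ATF3 were each lower with TGF-alpha than in all of the other 3 groups, as were 5.97% of all genes. In heregulin against TGF-alpha, 8 of the 12 refits with 1 array left out did not keep the JUN call. The ATF3 call ended in 2 of them. Those refits took JUN or ATF3 out of this set. FOSL2 was higher with heregulin than in all of the other 3 groups, as were 1.13% of all genes.

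**Figure D4:**
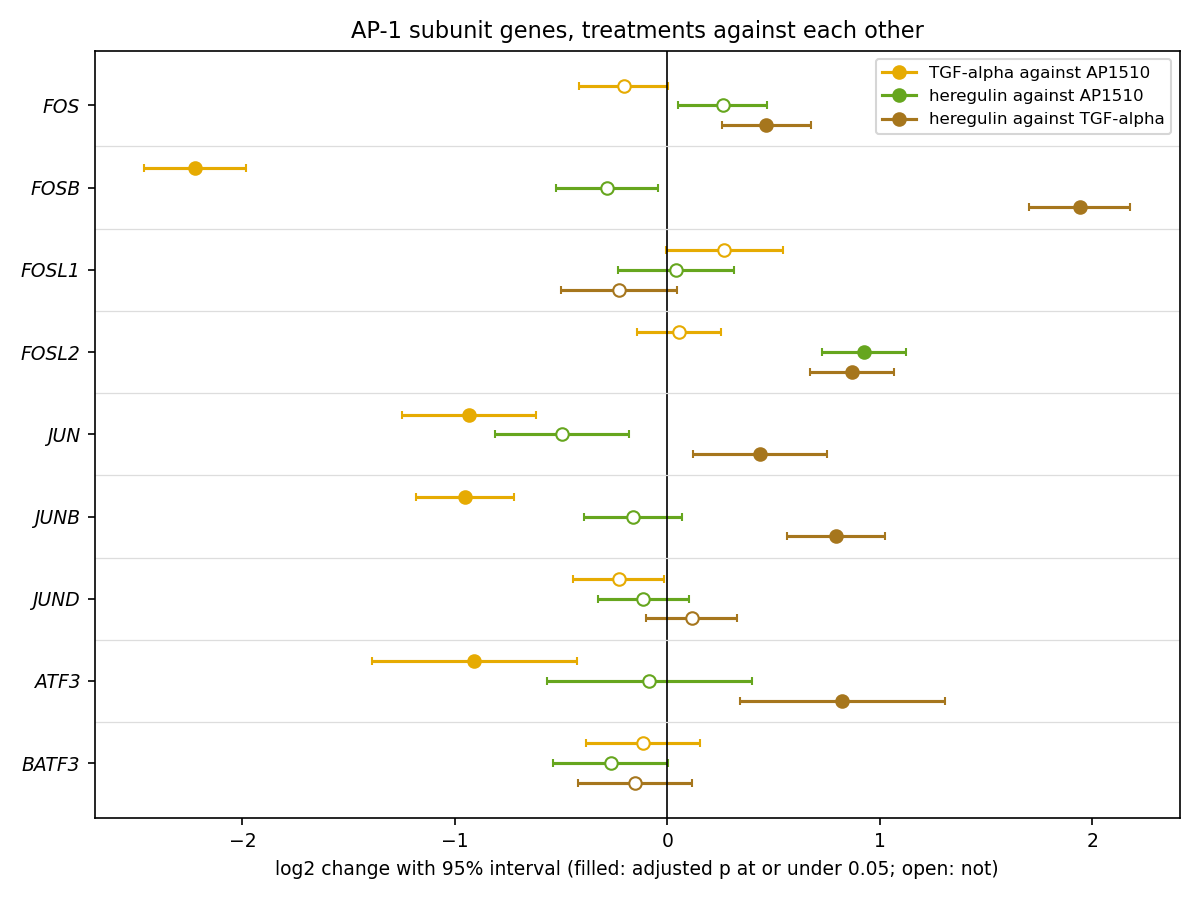
Log2 difference of each AP-1 subunit gene between pairs of treatments, with 95% intervals from the limma fit (3 arrays per group); filled points passed an adjusted p of 0.05. TGF-alpha against AP1510 reaches -2.22 for FOSB, and in heregulin against AP1510 only FOSL2, at 0.93, is filled.

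Genes around AP-1 were described from 7 further lists, of whose 91 genes 79 were measured. The counts are from limma, against untreated unless said. Of all genes tested, 1.47% were called with AP1510, 26% with TGF-alpha and 8.5% with heregulin. The counts for bZIP genes and for promoter factors lie near or under these shares. Of 9 other bZIP genes that can pair with AP-1 proteins, TGF-alpha lowered 1, while with AP1510 and with heregulin 0 passed, and 0 had an unadjusted p under 0.05. The member that fell was MAFF, a small MAF gene, at a log2 change of -0.46 (adjusted p = 0.016, and 0.075 without untreated replicate 1 or 0.087 without TGF-alpha replicate 3), and it was higher with heregulin than with TGF-alpha by 0.55 (adjusted p = 0.0061). Genes of factors that act on the FOS and JUN promoters had 1 of 10 risen and 2 fallen with TGF-alpha. With AP1510 and heregulin 0 passed, and 0 and 2 had an unadjusted p under 0.05. With TGF-alpha ELK3, an ETS partner of serum response factor, rose by a log2 change of 0.44 (adjusted p = 0.00064), MRTFB, an actin-regulated coactivator of that factor, fell by 0.38 (adjusted p = 0.0042), and SRF itself fell by 0.30 (adjusted p = 0.036). The SRF call ended in 4 of the 12 refits, with adjusted p up to 0.16 without TGF-alpha replicate 1.

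Among 16 upstream kinase genes measured, TGF-alpha raised 1 and lowered 3, heregulin lowered 1, and with AP1510 0 passed, with 1 at an unadjusted p under 0.05. These counts lie near or under the shares of all genes called, 26% with TGF-alpha, 8.5% with heregulin and 1.47% with AP1510. RPS6KA2, which encodes the ERK-activated kinase RSK3, rose with TGF-alpha by a log2 change of 1.73 (adjusted p = 3.3e-09). MAP3K1, an activator of the JNK pathway, fell by 0.60 (adjusted p = 3.9e-05), and RPS6KA5, which encodes the nuclear kinase MSK1, fell by 0.46 with TGF-alpha (adjusted p = 0.03) and by 0.55 (adjusted p = 0.027) with heregulin. Both RPS6KA5 calls ended in some refits, with adjusted p of 0.16 and 0.15 without untreated replicate 3. Genes for turnover of AP-1 proteins, which include the ubiquitin ligase genes COP1, FBXW7 and ITCH, had 0 of 5 passed in each of the 3 contrasts, and 0, 1 and 0 at an unadjusted p under 0.05 with AP1510, TGF-alpha and heregulin.

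Genes that act on AU-rich mRNA, the short-lived class to which FOS RNA belongs, numbered 6. AP1510 lowered 1 of them, TGF-alpha raised 2 and lowered 2, and heregulin lowered 1. The shares of all genes called were 1.47%, 26% and 8.5% in the same order. ZFP36L1, which promotes decay of such RNA, fell by 1.32 with TGF-alpha (adjusted p = 8.4e-07) and by 0.67 (adjusted p = 0.0029) with heregulin. Its relative ZFP36 fell by 0.61 with AP1510 (adjusted p = 0.032, and 0.14 without AP1510 replicate 1 or untreated replicate 2) and by 0.81 with TGF-alpha (adjusted p = 0.00022). KHSRP, another decay factor, rose by 0.49 with TGF-alpha (adjusted p = 0.00015).

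Textbook AP-1 target genes moved in both directions. Out of 22 measured, AP1510 lowered 4, TGF-alpha raised 4 and lowered 9, and heregulin raised 1 and lowered 9, with median log2 changes of -0.05, -0.06 and -0.15. Of all genes, 0.7% were lower with AP1510, 12.5% higher and 13.4% lower with TGF-alpha, and 3.45% higher and 5.06% lower with heregulin. PLAU, the urokinase gene, fell in all 3 treated groups, by 0.84, 1.74 and 1.67 with AP1510, TGF-alpha and heregulin (adjusted p = 0.037, 2.9e-06 and 2.3e-05). Its AP1510 call ended in 8 of the 12 refits, with adjusted p up to 0.14 without untreated replicate 1 and 0.071 without AP1510 replicate 1. IL6, an inflammatory cytokine gene, fell by 1.02, 1.57 and 0.65 in the same order (adjusted p = 0.0011, 2.3e-07 and 0.0051). It was dim, with a mean of 5.57 in untreated cells and of 4.551, 4.005 and 4.919 after treatment. The median over all probe sets was 5.37. Others rose with TGF-alpha: HMGA1, a chromatin architectural protein gene, by 1.79 (adjusted p = 1.4e-08), VIM, vimentin, by 1.45 (adjusted p = 1.8e-07), and CCND1, cyclin D1, by 0.66 (adjusted p = 0.00051), whereas CCND1 fell by 0.54 with heregulin (adjusted p = 0.0086). CXCL8, the interleukin-8 gene, fell by 1.14 with TGF-alpha (adjusted p = 1e-05), and its log2 change with heregulin was 0.36 (adjusted p = 0.15).

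Early response genes outside the AP-1 family, 11 measured, were lowered in 4 cases by AP1510 and in 10 by TGF-alpha, while heregulin lowered 8 and raised 1. Of all genes, 0.7% were lower with AP1510, 13.4% with TGF-alpha and 5.06% with heregulin, and 3.45% were higher with heregulin. EGR3, a zinc finger factor gene, fell by 1.15, 2.50 and 1.88 on the log2 scale with AP1510, TGF-alpha and heregulin (adjusted p = 0.0051, 5e-08 and 5.9e-06).

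**Figure D5:**
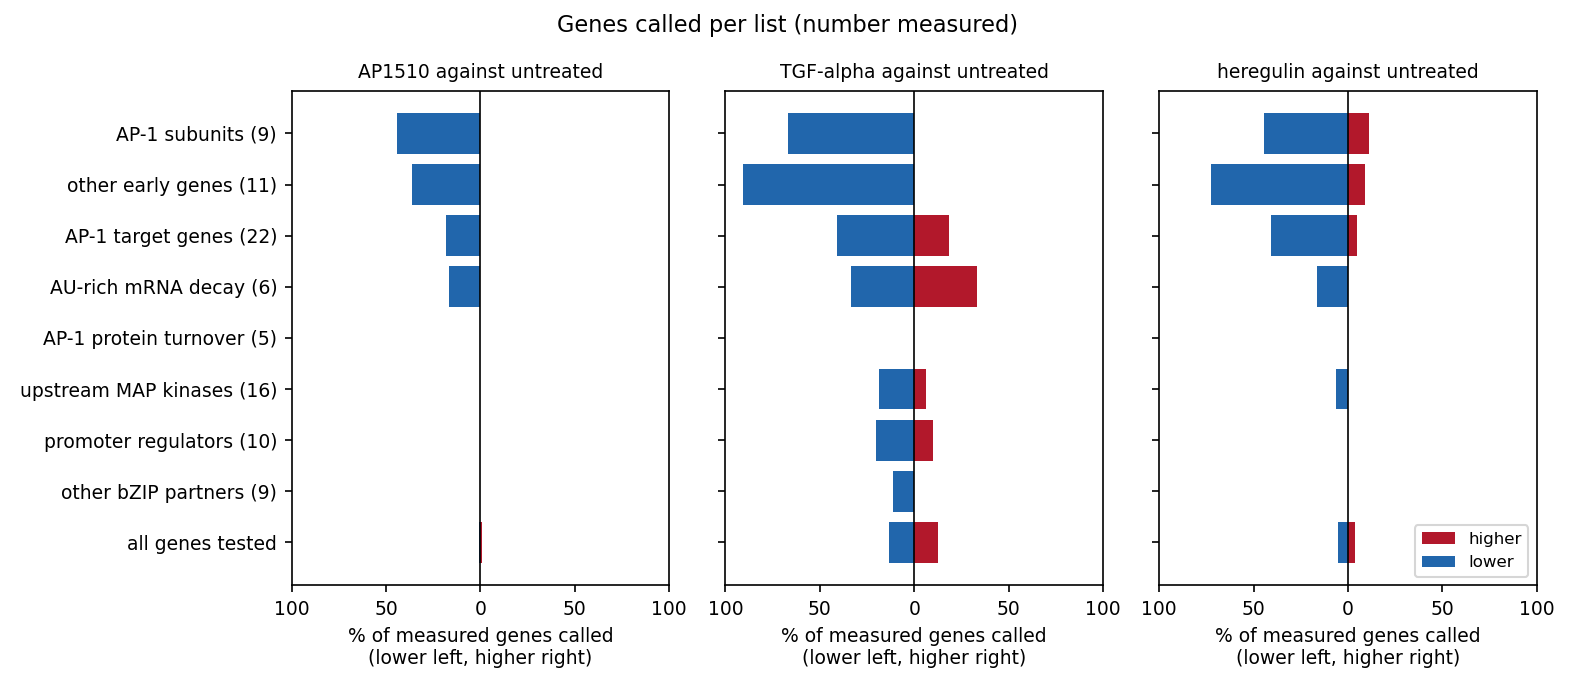
Percentage of the measured genes of each list that were called higher (right, red) or lower (left, blue) in each treatment against untreated cells, with the number measured in brackets and all 18417 genes tested in the bottom row. AP-1 subunits and other early genes extend mainly to the left, and turnover genes have no bar.

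Across the 12 arrays, which fall into the 4 groups, genes with the most similar profile were named for the 6 subunit genes that passed the F test (Pearson r, a description). IL6 (r = 0.956), TRIB1 (0.952) and IL4R (0.951) were closest to FOS. For FOSB they were CTSA (0.991), NTN4 (0.989) and PLK2 (0.989), the last with log2 changes of -0.46 with AP1510, -2.54 with TGF-alpha and -0.72 with heregulin. EGR3 (0.983), MAP3K14 (0.981) and LRIG1 (0.979) were closest to JUN, and CTSD (0.993), PLPP3 (0.991) and CCN1 (0.991) to JUNB. ATF3 was closest to HES1 (0.962), PPP1R3B (0.961) and KIF13B (0.956). FOSL2 had DLG5 (0.977), CCDC69 (0.962) and HSD17B2 (0.960), of which HSD17B2 changed by 2.50 on the log2 scale with heregulin, against -0.26 with AP1510 and -0.63 with TGF-alpha.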

How the data were processed

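RNA of 12 dishes was biotin-labelled with an Affymetrix kit, per the labels' protocols, and hybridised to 12 arrays. The authors deposited log2 intensities per probe set, made with RMA per the submitters' processing notes, which state no version. RMA equalises the distributions of the arrays, so a shift shared by most genes would not be seen. Values ran from 1.75 to 14.2, and nothing was rescaled.

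Of 33297 probe sets, 19460 named 1 gene and were used, while 1754 with several genes and 12083 without a listed one were left out. Symbols were updated through Entrez IDs (19429 matched RefSeq for GRCh38.p14). A gene with several probe sets was read from the one with the highest mean, which concerned 769 genes and none of the 9. The test was limma's (3.58.1, R 4.3.3), with 1 mean per group over 12 arrays (8 residual degrees of freedom, 7.55 prior), two-sided, with Benjamini-Hochberg adjustment over 18417 genes within each of 6 contrasts and a threshold of 0.05. The procedure was tested on simulated data. The genes and lists were chosen with earlier results of these data known. All 9 genes were named. Of each further list the text names at most the 6 with the lowest F test p, and the 3 genes most correlated with each of the 9 that passed the F test. Scan dates and probe-level files were not used here. The number of arrays limits the precision.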

Additional observations from a re-analysis of the deposited data

How the results depend on the processing

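Of the 54 changes (9 genes in 6 contrasts), 36 kept their direction and their side of the threshold under 7 other settings and 12 refits that each left out 1 array; 5 lost a call under at least 1 of these, 7 gained one and 6, none of which passed, changed sign. TGF-alpha against AP1510 gave FOSL2 -0.01 after renewed quantile normalization, and heregulin against AP1510 gave ATF3 0.085 with array weights. With 1 array left out, BATF3 ran from -0.029 to 0.196 in TGF-alpha against untreated and from -0.211 to 0.014 in TGF-alpha against AP1510, FOSL1 from -0.21 to 0.07 in heregulin against untreated and from -0.10 to 0.18 in heregulin against AP1510, FOSL2 from -0.023 to 0.158 in TGF-alpha against AP1510, and ATF3 from -0.42 to 0.20 in heregulin against AP1510. In AP1510 against untreated the number of the 9 genes called was 2 to 4 with 1 array left out. In heregulin against AP1510 it was 1 to 3, and in heregulin against TGF-alpha 4 to 7. The count for heregulin against AP1510 was 2 with arrays centred on their median or dim genes left out, and 3 with an intensity trend and robust prior or with array weights. FOS was among these 3 under both settings (log2 differences 0.26 and 0.38), and BATF3 with array weights (-0.40). JUNB with AP1510 missed the threshold after renewed quantile normalization (adjusted p = 0.05, just above it) and with only the compared groups fitted (adjusted p = 0.12). JUN in heregulin against TGF-alpha missed it with centred arrays (adjusted p = 0.072) and with only the compared groups (adjusted p = 0.058). The causes were not tested. Over all genes, array weights gave 3000 calls for heregulin against untreated in place of 1566 and 2452 for heregulin against AP1510 in place of 1331, which fitted on its own groups gave 743. With 1 array left out, calls for AP1510 against untreated ranged from 95 to 327 around 271, for heregulin against untreated from 1039 to 1602, and for heregulin against AP1510 from 818 to 1323. No paired analysis was possible because the labels give no replicate number shared between groups.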

Other observations

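AP1510 replicate 1 had the lowest value of the 3 AP1510 arrays for 8 of the 9 genes, as for 33.6% of all genes, and the highest for FOSL2. Replicate 3 had the highest for 7 of the 9, as for 32.6% of all genes. ATF3 stood at 5.67 on replicate 1 against 6.45 and 6.92 on the others, and JUN at 8.11 against 8.51 and 8.66. These tallies were not tested. On the first principal component, which held 48.6% of the variance, replicate 1, at -2.43, lay nearest to the heregulin arrays, at -8.5 to -6.49. This held on that component alone. On the second, replicate 1 lay at 5.54, far from the heregulin arrays at -30.1 to -17.8. The other AP1510 arrays lay there at 11.0 and 11.7, and the TGF-alpha arrays at 1.40 to 4.97.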
